A study of Mus musculus with 12 samples.

Results

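The 36 genes described here encode the machinery that moves secretory proteins into the endoplasmic reticulum (ER), folds them there, removes failures and signals overload. They were listed by symbol, by a rule with no measured value in it, although earlier results of these data were known when the list was made. They were read in single antibody-secreting cells (ASCs) of mice. By role they are 9 chaperones and their partners, 9 genes of disulfide and glycoprotein folding, 6 of translocation across the ER membrane, 8 of degradation, and 4 stress sensors or stress transcription factors. They are 36 of the 31890 genes in the count matrices that lie outside the immunoglobulin loci by symbol, and each of them passed the filter on low counts in every comparison below.

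A plasma cell makes antibody chains in very large amounts, and both chains must cross the ER membrane, be trimmed, bridged by disulfide bonds and assembled before they leave. Nascent chains pass the Sec61 channel, lose their signal peptide, and are held by Hspa5 (BiP), Hsp90b1 (Grp94) and the calnexin and calreticulin lectins while protein disulfide isomerases form their bonds. When unfolded protein builds up, the unfolded protein response, run by the sensors Ire1 (Ern1), Atf6 and Perk, raises the output of these same genes, and Ire1 with its target Xbp1 is known to be needed for high antibody secretion in plasma cells.

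The cells came from Prdm1-eYFP mice, a strain in which yellow fluorescent protein reports the plasma cell regulator Prdm1 (Blimp-1), on the C57BL/6 background. All mice were 3 months old and no treatment is given for any group. ASCs were sorted as CD138-high, IgD-negative, CD90.2-negative and eYFP-positive, with B220 either way, from bone marrow, spleen and thymus. There was 1 droplet library (10x Genomics 5′ chemistry) for each sex and tissue, each from a pool of 3 mice, so a library is the replicate. For tissue and sex, p-values measure the spread between 6 pools. Comparisons of barcodes within libraries had library as a block, so their p-values measure how far differences within a library vary between libraries.

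A barcode was kept when it had at least 1000 UMIs (unique molecular identifiers, 1 per captured transcript) outside genes whose symbol starts with Igh, Igk or Igl, and when its leading light-chain V gene held at least 50% of all light-chain V UMIs. That left 8715 of 39949 barcodes: 1238 and 1665 for bone marrow, 3567 and 1850 for spleen, and 107 and 288 for thymus, with the female library first in each pair here and below. Their UMIs outside immunoglobulin genes totalled 264621 (female thymus) to 21287170 (female spleen), with medians of 2035 to 4352 per barcode. No pair of libraries shared more than 11 of these barcodes. The ASC markers Prdm1, Xbp1, Irf4, Sdc1, Tnfrsf17 and Jchain were well represented in all 6 libraries, and summed B cell markers stayed at 0.0150% to 0.0230% of UMIs outside immunoglobulin genes. Of the other lists, macrophage markers were at 0.00227% to 0.00764%, T cell markers at 0.000581% to 0.00151% and erythroid markers at 0% to 0.00244%. Neutrophil markers moved with tissue: all 6 were detected in bone marrow, at 0.0409% (female) and 0.141% (male), against 3 UMIs in female spleen, 1 in male spleen and 0 in either thymus library. Among ribosomal-poor barcodes of male bone marrow they reached 0.353%. The part of these markers in the tissue differences below was not tested within the 2 sides of the ribosomal split. The libraries differed in another way. Barcodes with at least 10% of these UMIs from ribosomal protein genes numbered from 15 of 107 (female thymus) to 1741 of 3567 (female spleen). Because several of the genes move with this split, values within each side of it are given below. Levels are counts per 1000000 UMIs outside immunoglobulin genes, written CPM, so that antibody mRNA is not in the denominator.

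The unfolded protein response is known to act on many ER genes through short promoter elements, and the matches to them in these genes are shown here so that the values below can be read beside them. RefSeq promoter entries (GRCm38.p6) matched 29 of the 36 genes, with 33 windows of 250 bases before a start site. The ER stress response element (ERSE) was searched on both strands as CCAAT, 9 bases of any kind, then CCACG. It lay in a window of 8 of the 29 genes, against 0.113% of all 32851 windows of that length. The sites are printed 5′ to 3′ on the strand that reads CCAAT first, with the fixed bases in capitals.

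Hspa5 (chr2:34772025-34772043, plus strand): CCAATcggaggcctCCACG
Hsp90b1, nearer the start (chr10:86705533-86705551, plus strand): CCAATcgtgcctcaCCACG
Hsp90b1, farther from the start (chr10:86705638-86705656, minus strand): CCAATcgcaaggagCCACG
Dnajc3 (chr14:118937827-118937845, plus strand): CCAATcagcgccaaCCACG
Creld2 (chr15:88819520-88819538, minus strand): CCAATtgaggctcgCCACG
Calr (chr8:84847075-84847093, plus strand): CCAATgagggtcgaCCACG
Canx (chr11:50325800-50325818, minus strand): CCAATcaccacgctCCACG
Pdia6 (chr12:17266491-17266509, plus strand): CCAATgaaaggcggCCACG
Derl3 (chr10:75893242-75893260, minus strand): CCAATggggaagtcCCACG

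All 9 sites share the 10 fixed bases by the search, and the 9 bases between differ in every one. The last base of the sites lies 47 bases (Hspa5) to 194 bases (the farther Hsp90b1 site) before the start. A related element, ERSE-II (ATTGG, any base, CCACG), was found in the Herpud1 window alone among the 29 genes, and in 0.0304% of all windows. Its sequence there was ATTGGgCCACG at chr8:94386377-94386387 on the plus strand. The UPRE motif TGACGTGG, a site read by Xbp1 and Atf6, lay in 1 of the windows of Txndc5 (chr13:38528045-38528052, minus strand) and in 0.563% of all windows. That window is not the one printed below, and it lies inside the annotated span of the gene (38500079 to 38528824). The CARE motif (TGATG, any base, AA), which the Atf4 branch uses, lay before Herpud1 and Txndc5 and in 3.45% of all windows.

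Whole windows are given for Herpud1, Creld2 and Txndc5, whose results below differ between antibody classes. The capitals mark the matched motifs, and each window is printed on the strand of its gene.

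Herpud1 (chr8:94386179-94386428, plus strand): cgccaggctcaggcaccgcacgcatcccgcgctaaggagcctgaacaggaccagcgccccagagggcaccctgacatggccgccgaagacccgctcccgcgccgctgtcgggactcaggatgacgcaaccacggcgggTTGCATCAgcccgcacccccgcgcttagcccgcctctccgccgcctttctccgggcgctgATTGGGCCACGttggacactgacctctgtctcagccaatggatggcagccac
Creld2 (chr15:88819396-88819645, plus strand): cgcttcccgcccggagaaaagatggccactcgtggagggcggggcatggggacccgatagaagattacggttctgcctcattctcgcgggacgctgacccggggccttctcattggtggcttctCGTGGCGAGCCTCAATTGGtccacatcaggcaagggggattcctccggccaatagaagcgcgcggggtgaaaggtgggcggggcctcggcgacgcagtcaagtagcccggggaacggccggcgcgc
Txndc5 (chr13:38528825-38529074, minus strand): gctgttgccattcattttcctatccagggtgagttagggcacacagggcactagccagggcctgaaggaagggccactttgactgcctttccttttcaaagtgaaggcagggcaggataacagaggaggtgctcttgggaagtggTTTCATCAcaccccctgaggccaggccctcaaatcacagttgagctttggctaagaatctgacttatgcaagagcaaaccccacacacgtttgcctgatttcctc

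Each window lies directly upstream of its gene's annotated start region, outside the transcribed part. In the Herpud1 window the capitals mark ERSE-II and, on the opposite strand, CARE. In the Creld2 window they mark ERSE and in the Txndc5 window CARE, both on the strand opposite to the gene. A match is a string of letters and was not tested as a binding site.

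Together the 36 genes took a substantial part of the cells' RNA outside immunoglobulin. They made up 4.41% and 4.67% of those UMIs for bone marrow, 6.25% and 6.09% for spleen, and 5.97% and 5.19% for thymus. Both spleen libraries lay above both bone marrow libraries, and the thymus libraries lay between the bone marrow and spleen ranges. Barcodes outside the cell lists carried the same genes, at 2.61% (female bone marrow) to 5.75% (female spleen) of UMIs outside immunoglobulin genes. Their sum is called RNA outside cells, or background, below. It was taken with no upper limit of UMIs per barcode, so cells missed by the lists are not excluded from it. In male thymus this background (5.44%) was above the value of the cells. Its part in the differences between tissues was not tested.

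**Figure D1:**
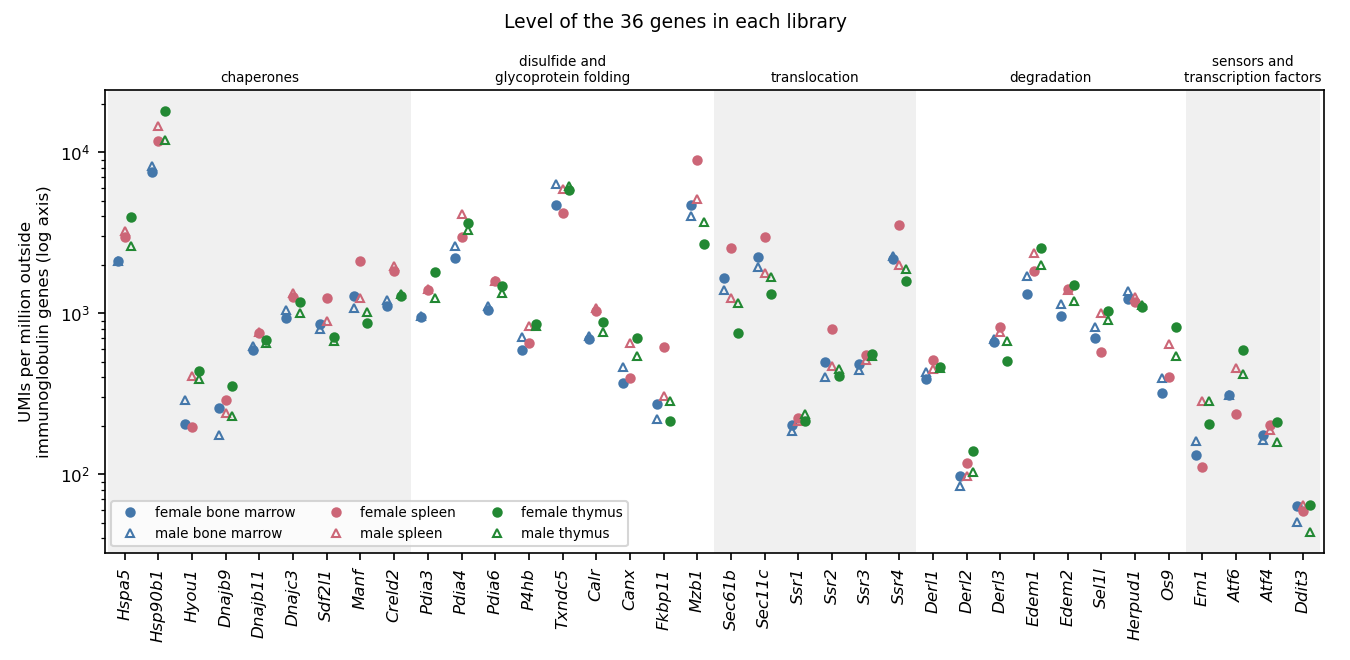
Level of each of the 36 genes in each of the 6 libraries, in CPM (UMIs per 1000000 UMIs outside immunoglobulin genes) on a log axis; circles are female and triangles male pools, colours are tissues, and shading separates the roles. Spleen points tend to lie above bone marrow points, while the 2 libraries of a tissue often differ from each other by as much as tissues do (Mzb1 at 9002 and 5098 in the spleen libraries).

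Tissue differences were seen as levels that leaned one way, but no gene passed the test when all kept barcodes were summed. Between spleen and bone marrow, 34 of 36 genes were above 0 on the log2 scale, with a median of 0.34 against 0.03 for all 11239 genes tested. None of the 36 was called (edgeR quasi-likelihood test, adjusted p under 0.05), beside 0.436% of all genes called in either direction. The unadjusted p was under 0.05 for 1 gene, and DESeq2 called 0 with 3 genes under 0.05 unadjusted. None was called between thymus and bone marrow (0.765% of all genes called, no member under 0.05 unadjusted by either tool) or between thymus and spleen (0.632% of all genes, 5 members under 0.05 unadjusted and 11 by DESeq2). None was called between male and female libraries (0.427% of all genes, 2 members under 0.05 unadjusted and 1 by DESeq2), and DESeq2 called 0 in these contrasts too. Without barcodes carrying at least 2 UMIs of other-type markers, 4 genes were called lower in thymus than in spleen (beside 1.71% of all genes lower). Leaving out male spleen gave 1 called gene for spleen against bone marrow and 5 for thymus against spleen. The share of all genes called without male spleen is not given here.

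Fkbp11, an ER prolyl isomerase that is abundant in secretory cells, had the lowest p between spleen and bone marrow. Its level was 275 and 220 CPM for bone marrow, 614 and 306 for spleen, and 215 and 285 for thymus. Both spleen values lay above the other 4, but the male spleen value was close to the male thymus value. The log2 difference between spleen and bone marrow was 0.90 ± 0.40 (SE, 2 libraries per tissue; edgeR adjusted p = 0.904). Mzb1, a B-lineage partner of Hsp90b1 that aids antibody assembly, was at 4676 and 4036 CPM for bone marrow, 9002 and 5098 for spleen, and 2702 and 3714 for thymus. The thymus values were the lowest and the spleen values the highest, with no overlap between the 3 tissues. The log2 difference between thymus and spleen was -1.39 ± 0.57 (edgeR adjusted p = 0.491).

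For the large chaperones the 2 thymus pools were far apart. Hspa5, the main Hsp70 chaperone of the ER, was at 2117 and 2106 CPM for bone marrow, 2998 and 3245 for spleen, and 3957 and 2614 for thymus. Hsp90b1, the ER form of Hsp90, was at 7571 and 8219 CPM for bone marrow, 11830 and 14590 for spleen, and 18120 and 12010 for thymus. For both genes the bone marrow values lay below every value of the other tissues, and the female thymus library was the highest of the 6. The female thymus library is also the smallest, with 107 barcodes. RNA outside cells held Hspa5 at 1456 and 2469 CPM for bone marrow, 3638 and 3400 for spleen, and 2745 and 3943 for thymus. For Hsp90b1 it was at 5757 and 8939, 12260 and 13060, and 13110 and 16520 in the same order. Bone marrow was lowest in this background, as in the cells over all kept barcodes, and the part of the background was not tested.

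Creld2, a stress-induced isomerase, and Calr, the lectin chaperone calreticulin, had the next lowest p between spleen and bone marrow. Creld2 was at 1111 and 1207 CPM for bone marrow and 1843 and 1979 for spleen, a log2 difference of 0.74 ± 0.45 (edgeR adjusted p = 1). Calr was at 694.5 and 721.5 CPM for bone marrow and 1032 and 1076 for spleen, a difference of 0.59 ± 0.42 (edgeR adjusted p = 1). Neither gene's bone marrow and spleen values overlapped. RNA outside cells held Creld2 at 590 and 1041 CPM for bone marrow and 1638 and 1697 for spleen. It held Calr at 508.5 and 869 against 1157 and 1245. Both differ in the same direction as the cells, and the part of this background was not tested. Against bone marrow, thymus had lower values of Sec61b, a subunit of the translocation channel (1656 and 1389 against 760 and 1165), and of Sec11c, a catalytic subunit of signal peptidase (2251 and 1951 against 1315 and 1689). It had higher values of Os9, a lectin that hands misfolded glycoproteins to degradation (318 and 394 against 820 and 541). The differences were -0.86 ± 0.50, -0.72 ± 0.49 and 0.64 ± 0.40, with edgeR adjusted p = 0.632, 0.713 and 0.659. Among ribosomal-rich barcodes the Sec61b values overlapped (2374 and 2061 CPM for bone marrow, 2292 and 2132 for thymus). Among ribosomal-poor ones thymus was lower (426.5 and 341.6 against 260.5 and 310.5). Sec11c was lower in thymus on both sides (2898 and 2561 against 2400 and 2480, then 1142 and 998.5 against 961.8 and 990.2). Os9 was higher on both (210 and 203 against 369 and 237, then 503 and 692 against 967 and 810). Female thymus had 15 ribosomal-rich barcodes.

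Sex differences were small in the same sums. Dnajb9, an Hspa5 partner that represses Ire1, was higher in the female library of each tissue: 256.5 against 175 in bone marrow, 291 against 241.5 in spleen and 355 against 230 in thymus. The highest male value lay below the lowest female value. The log2 difference, male against female, was -0.63 ± 0.28 (edgeR adjusted p = 0.443). Ern1 differed by 0.58 ± 0.28 and Derl2, a channel-forming Derlin, by -0.46 ± 0.25 (edgeR adjusted p = 0.486 and 0.544).

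Within each side of the ribosomal split the libraries lay closer together, and some tissue calls appeared. The biological coefficient of variation between libraries was 0.199 over all kept barcodes, 0.0859 among ribosomal-rich and 0.116 among ribosomal-poor ones. The following 2 sets of fits were added after the data were seen. Among barcodes with at least 10% ribosomal protein UMIs, Fkbp11 was at 369 and 288 CPM for bone marrow and 708 and 481 for spleen. Both spleen values were above both bone marrow values, and the log2 difference of 0.85 ± 0.17 was called (edgeR adjusted p = 9.66e-05; 1.41% of 9685 genes higher). RNA outside cells held Fkbp11 at 217 and 240 CPM for bone marrow and 641 and 419 for spleen, which is the same order, and its part in the difference was not tested. Leaving out either spleen or either bone marrow library ended that call, and leaving out female or male thymus instead gave 20 and 21 called genes, all higher in spleen, beside 2.04% and 2.34% of all genes in those fits.

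Among barcodes under 10% ribosomal protein UMIs, 6 genes were higher in spleen than in bone marrow (1.11% of all genes were higher). These were Fkbp11 (1.30 ± 0.21, adjusted p = 9.26e-05), Mzb1 (0.91 ± 0.21, 0.0126), Ssr4 (0.90 ± 0.23, 0.0252), Sec61b (0.83 ± 0.20, 0.0201), Creld2 (0.79 ± 0.20, 0.0227) and Manf (0.76 ± 0.19, 0.0242), all as log2 differences with edgeR adjusted p. Mzb1 was at 2343 and 2113 in bone marrow against 5258 and 3195 in spleen, and Ssr4, a subunit of the translocon-associated complex, at 758 and 837 against 1996 and 991. The spleen values were above the bone marrow values for both, and the female spleen value was far above the male one. RNA outside cells held Mzb1 at 2872 and 3587 CPM for bone marrow and 8599 and 5755 for spleen, and Ssr4 at 1227 and 1558 against 2927 and 1945, so these cell levels, like those of Fkbp11, Sec61b and Manf, lie below a background that differs between the tissues in the same direction. Its part in the calls was not tested. DESeq2 called 2. Leaving out a bone marrow library gave 1 (female, beside 0.0538% of all genes higher) or 2 (male, 0.246%). Leaving out a spleen library gave 2 (female, 0.113%) or 10 (male, 3.74%).

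In the same barcodes, 5 genes were lower in thymus than in spleen (2.19% of all genes were lower): Sec61b (-1.26 ± 0.23), Mzb1 (-1.06 ± 0.22), Ssr4 (-0.96 ± 0.24), Creld2 (-0.80 ± 0.20) and Manf (-0.74 ± 0.20). Sec61b was at 906 and 468 in spleen against 260.5 and 310.5 in thymus, with no overlap. RNA outside cells held it at 2107 and 1292 CPM for spleen and 1573 and 1180 for thymus, above all 4 cell values and higher for spleen within each sex. The cell values of Mzb1, Ssr4 and Manf also lay below that background. The count was 0 without female thymus and 3 without male thymus or female spleen (beside 2.07% and 0.652% of all genes lower). It was 10 without male spleen (beside 4.33% of all genes lower). On the other side of the split, 4 genes were lower in thymus than in spleen (0.351% of all genes were lower): Mzb1 (-1.24 ± 0.34), Manf (-0.91 ± 0.27), Sdf2l1 (-0.90 ± 0.25), a stress-induced Hspa5 cofactor, and Calr (-0.84 ± 0.24). The female thymus sum there came from 15 barcodes. The count was 0 without either spleen or either bone marrow library and 0 with DESeq2, and 18 without male thymus (beside 1.92% of all genes lower).

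Dnajb9 was lower in male than in female libraries on both sides of the split, by -0.43 ± 0.13 (edgeR adjusted p = 0.0248; 2.43% of all genes lower) and -0.76 ± 0.15 (adjusted p = 0.00234; 2.17% of all genes lower). RNA outside cells held Dnajb9 in the same order, female against male. It was at 171 against 149 CPM for bone marrow, 270 against 191 for spleen and 224.5 against 209 for thymus. The part of this background was not tested. Fkbp11 was lower in male libraries among ribosomal-rich barcodes, by -0.51 ± 0.16 (adjusted p = 0.0292). These male against female counts of 2 and 1 fell to 0 without either bone marrow library, and the first also without either spleen library. Without either thymus library they were 13 (12 lower and 1 higher) and 3 (all lower). Beside the first, 3.92% (without female thymus) and 4.41% (without male thymus) of all genes were lower, and 2.12% and 2.4% were higher. Beside the second, 4.05% and 4.03% were lower. Between thymus and bone marrow no gene was called on either side (1.24% and 1.19% of all genes called), with 3 and 4 genes under an unadjusted p of 0.05. The count of called ribosomal-rich genes was 1 without female thymus and 12 without male thymus, all lower (beside 0.251% and 1.5% of all genes lower). Among ribosomal-poor barcodes it was 1, higher, without female spleen, female thymus or male spleen (beside 1.04%, 0.694% and 1.05% of all genes higher).

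Antibody class separated many of the genes. Each barcode was assigned by its leading heavy-chain constant gene, and IgM, IgA and IgG sums were compared within libraries, leaving out sums of fewer than 20 barcodes, which removed IgA and IgG of female thymus. The 3 class comparisons share their samples pairwise and are therefore given side by side. Among the 36 genes, 15 were higher in IgG than in IgM cells and 3 were lower, beside 5.76% and 6.72% of 8543 genes. The count of lower genes is close to that share. Of the 15, 14 were higher in each of the 5 libraries with both classes. Manf was higher in 4 of 5. Among ribosomal-rich barcodes 12 genes were higher and 3 lower, beside 2.66% and 3.67% of all genes. Among ribosomal-poor ones 16 were higher and 2 lower, beside 6.99% and 5.67%.

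Txndc5, an ER thioredoxin-domain protein of the disulfide isomerase family on chromosome 13 (38500079 to 38528824, minus strand, GRCm38), had the largest difference of the 36. In IgM cells it was at 5036 and 6517 CPM for bone marrow, 4860 and 6340 for spleen and 6784 for male thymus. In IgG cells of the same libraries it was at 1838, 2566, 1673, 2447 and 2390. In IgA cells it was at 4805, 6302, 5193, 7256 and 7028. The IgG values lay below every IgM and every IgA value, while the IgM and IgA values overlapped. The log2 difference was -1.46 ± 0.10 for IgG against IgM (edgeR adjusted p = 3.14e-11, lower in 5 of 5 libraries) and 1.5 ± 0.10 for IgA against IgG (adjusted p = 2.45e-11, higher in 5 of 5). For IgA against IgM it was 0.04 ± 0.10, not called.

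The low level of Txndc5 was found in each IgG subclass that had at least 20 barcodes in a library. It lay between 1434 (Ighg3 in female spleen, 94 barcodes) and 2922 (Ighg2c in male spleen, 63 barcodes). Ighg1 reached 20 barcodes only in female spleen, where Txndc5 was at 1499 over 65 barcodes. RNA outside cells held Txndc5 at 1782 to 3187, and this background was above the IgG value in 4 of the 5 libraries, so IgG levels of Txndc5 cannot be told apart from it. Among ribosomal-rich barcodes alone, where 3 libraries had both classes, the IgG against IgM difference was -1.51 ± 0.11 (edgeR adjusted p = 6.1e-11).

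**Figure D2:**
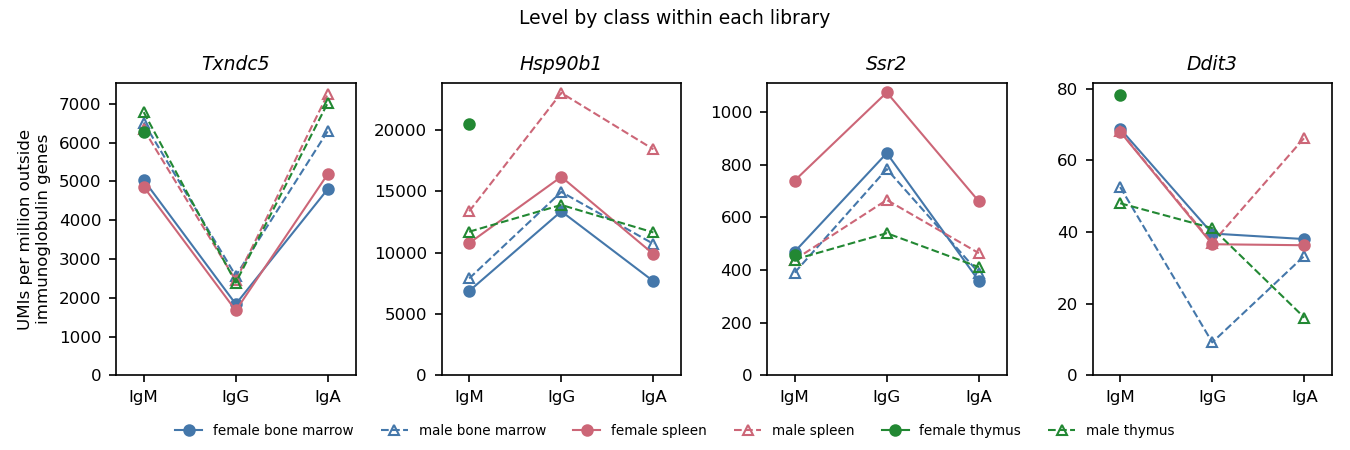
Levels of Txndc5, Hsp90b1, Ssr2 and Ddit3 in IgM, IgG and IgA cells of each library, in CPM (UMIs per 1000000 UMIs outside immunoglobulin genes); lines join the classes of 1 library, and female thymus has an IgM value only. Txndc5 drops in IgG in all 5 joined libraries, from 4860 to 6784 in IgM to 1673 to 2566 in IgG, while Hsp90b1 and Ssr2 peak in IgG.

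Chaperones were higher in IgG cells for 6 of 9 genes, with none lower. Hsp90b1 was at 6870, 7895, 10770, 13360 and 11700 in IgM and at 13360, 14940, 16170, 23000 and 13880 in IgG of the same libraries. It was higher in IgG in all 5, although the ranges over libraries overlap. In male thymus the 20 barcodes led by Ighg2c, the only subclass sum of at least 20 barcodes there, were at 9565 CPM, below IgM, and RNA outside cells was at 16520, above both classes. Over the 5 libraries the log2 difference was 0.68 ± 0.11 (edgeR adjusted p = 8.37e-05). Hspa5 was at 2127, 2084, 2845, 3053 and 2593 in IgM and 2459, 2858, 3671, 4647 and 3025 in IgG, higher by 0.35 ± 0.11 (adjusted p = 0.0262). The others were Manf, a secreted ER stress protein (0.38 ± 0.10), Dnajb9 (0.37 ± 0.10), Dnajc3, which attenuates the Perk branch (0.35 ± 0.10), and Hyou1, the nucleotide exchange factor of Hspa5 (0.30 ± 0.10). Dnajb11, Sdf2l1 and Creld2 were not called. Among ribosomal-rich barcodes, with both classes in 3 libraries, the calls of several chaperones ended. These were Hspa5 (0.27, edgeR adjusted p = 0.168), Dnajb9 (0.34, 0.129), Dnajc3 (0.25, 0.234) and Hyou1 (0.23, 0.388). Over 16 alternative fits the Hyou1 call was kept in 4.

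Of the 6 translocation genes, 4 were higher in IgG cells and none lower. Ssr2, the beta subunit of the translocon-associated complex, was at 470, 390.5, 740, 440 and 440 in IgM and 844, 784, 1075, 667 and 540 in IgG. It was higher in all 5 libraries, by 0.65 ± 0.10 on the log2 scale (edgeR adjusted p = 1.95e-05). Ssr4 differed by 0.60 ± 0.12 (adjusted p = 0.000473), Sec61b by 0.36 ± 0.12 and Ssr3 by 0.30 ± 0.09. Ssr1 and Sec11c were not called. Over 16 alternative fits the call was kept in 9 for Sec61b and in 7 for Ssr3.

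Among the 9 genes of disulfide and glycoprotein folding, Fkbp11 (0.52 ± 0.10, adjusted p = 0.000401) and Mzb1 (0.51 ± 0.12, adjusted p = 0.00396) were higher in IgG cells and Txndc5 alone was lower. The isomerases Pdia3, Pdia4, Pdia6 and P4hb and the lectins Calr and Canx were not called. Of the 8 degradation genes, Edem2 (0.59 ± 0.12) and Edem1 (0.52 ± 0.10), which trim or recognise mannose on misfolded glycoproteins, and Os9 (0.43 ± 0.10) were higher. Among ribosomal-rich barcodes Os9 was not called (0.29, edgeR adjusted p = 0.196). Herpud1, a stress-induced scaffold of the ubiquitin ligase complex, was lower. It was at 1297, 1409, 1224, 1292 and 1213 in IgM and 857, 876, 1090, 1155 and 828 in IgG, with no overlap between the classes, and the log2 difference was -0.44 ± 0.11 (edgeR adjusted p = 0.00691). By subclass, Ighg2b cells of male spleen were at 1505 CPM over 74 barcodes, above the IgM value of that library, and those of female spleen at 1213 over 308 barcodes, close to IgM. The other subclass sums of at least 20 barcodes lay below IgM of their library.

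Of the 4 sensors and transcription factors only Ddit3 (Chop), a transcription factor downstream of Atf4, was called. It was at 68.9, 52.6, 68.0, 68.1 and 48.1 in IgM and at 39.6, 9.22, 36.6, 37.0 and 41.1 in IgG. Each IgG value was below each IgM value, although the lowest, in male bone marrow, rested on 3 UMIs. RNA outside cells held Ddit3 at 22.3, 28.7, 38.0, 32.7 and 36.8 CPM in these libraries, so the IgG levels are near or below this background, apart from female bone marrow. In the fit the log2 difference was -0.91 ± 0.13 (edgeR adjusted p = 1.23e-05). Ern1, Atf6 and Atf4 were not called.

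Other genes of the pathway were counted from lists named by function. Of 63 tested, 16 were higher in IgG cells and 3 lower. Folding contributed 6 of 12 (Erp29, Erp44, Hspa13, Ppib, Prdx4 and Txndc11) and transport to the Golgi 4 of 11 (Lman1, Sec23b, Sec24d and Surf4). In stress signalling, Xbp1, Atf6b, Creb3l2 and Eif2ak3 (Perk) were higher, and the Atf4 branch genes Asns, Atf5 and Chac1 were lower. Among the 8 genes with an ERSE match 3 were higher, and among the 21 with a window and no ERSE match 8 were higher and 3 lower. Both groups had a median log2 difference of 0.27.

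IgG and IgM cells of a library differed in more than class. Barcodes with at least 2 UMIs of cycling markers made up 28.5% of IgG and 13.2% of IgM cells in female bone marrow, 23.5% and 14.1% in male bone marrow, 27.9% and 22.8% in female spleen, 23.9% and 17.8% in male spleen, and 8.57% and 12.8% in male thymus. With those barcodes left out, 18 genes were higher and 3 lower. The share of all genes called in that fit is not given here, so these counts have no background beside them. Jchain, the joining chain of polymeric antibody, was lower in IgG than in IgM cells in all 5 libraries, for example 3.73% against 9.21% of UMIs in female bone marrow. The sum of the other 5 ASC markers was higher in IgG cells in all 5, at 0.547% against 0.479% and 0.699% against 0.578% for bone marrow, 0.558% against 0.509% and 0.579% against 0.564% for spleen, and 0.635% against 0.583% for male thymus. Their part in the differences was not tested. The count of 18 genes was 11 without female spleen and 11 without male spleen, and 8 among barcodes of the middle tertile of immunoglobulin share. The middle-tertile fit had 8 sums of library and class, against 15 over all barcodes, and its share of all genes called is not given here.

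**Figure D3:**
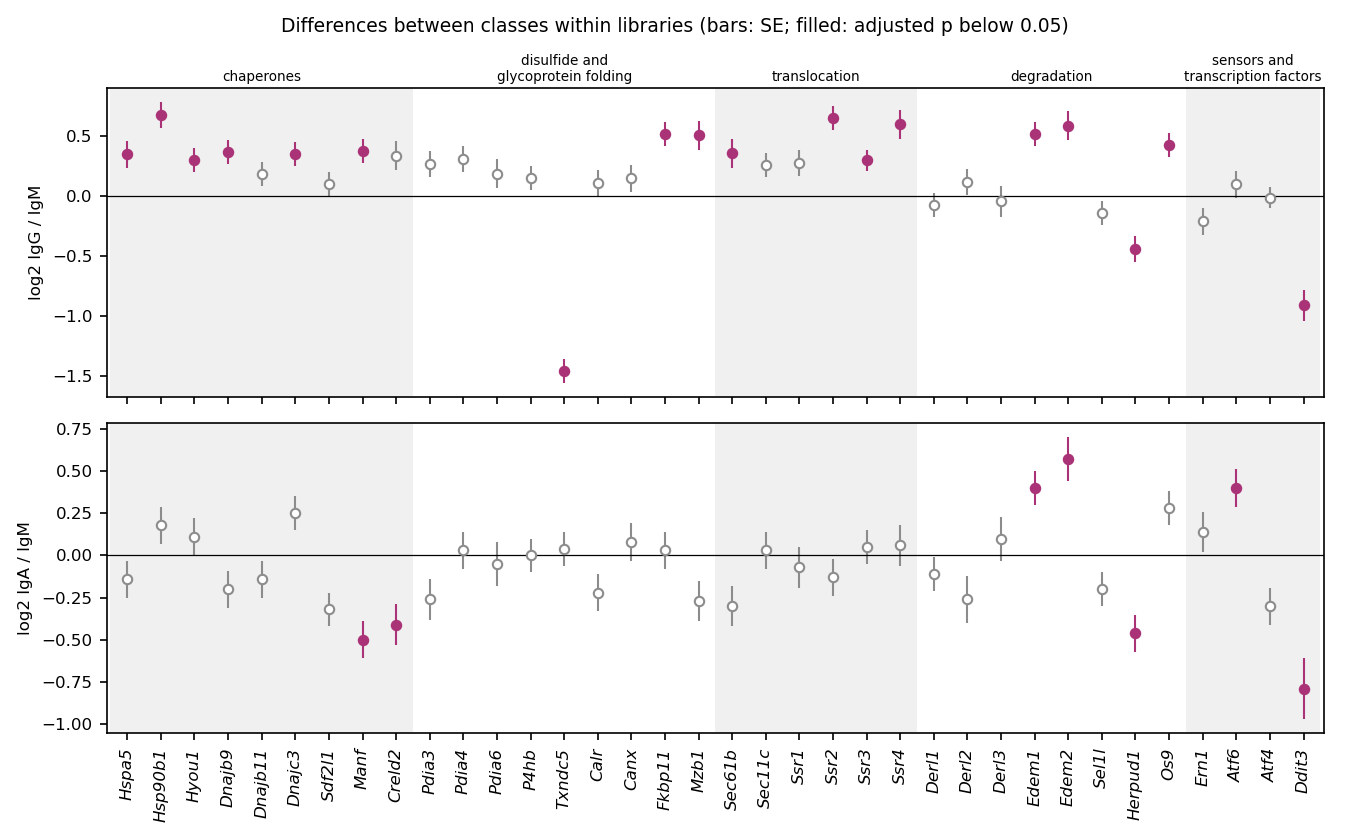
Log2 difference of each gene for IgG against IgM (top) and IgA against IgM (bottom) within libraries; bars are SE, filled points have an adjusted p under 0.05, and shading separates the roles. In the top panel Txndc5 (-1.46) and Ddit3 (-0.91) lie below the other genes, and in the bottom panel most points are open.

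IgA cells differed from IgM cells in fewer genes: 3 were higher and 4 lower, beside 3.98% and 4.25% of all genes. The degradation genes Edem2 (0.57 ± 0.13, edgeR adjusted p = 0.00332) and Edem1 (0.40 ± 0.10, 0.0145) and the sensor Atf6 (0.40 ± 0.11, 0.0219) were higher in all 5 libraries. Ddit3 (-0.79 ± 0.18, 0.00403), Manf (-0.50 ± 0.11, 0.00261) and Herpud1 (-0.46 ± 0.11, 0.0094) were lower in all 5 libraries, and Creld2 (-0.41 ± 0.12, 0.0293) in 4 of 5. The lowest Ddit3 value in IgA, 16.1 CPM in male thymus, rested on 2 UMIs. Edem2 was at 854, 1076, 1295, 1313 and 1165 in IgM and at 1641, 1599, 1763, 2282 and 1226 in IgA, so the male thymus pair was nearly equal. The immunoglobulin share of UMIs was also higher in IgA cells, with a median of 57.0% against 42.4% for IgM in female bone marrow, and within the middle tertile of that share none of the 36 was called. That fit had 8 sums and 3 residual degrees of freedom, against 15 and 8 over all barcodes. The share of all genes called in it is not given here, so the absence of calls has no background beside it. Barcodes with at least 2 UMIs of other-type markers were fewer in IgA than in IgM in all 5 libraries (11.1% to 25% against 24.7% to 45.4%), and the median mitochondrial share was higher in all 5 (4.96% to 7.24% against 3.04% to 5.595%). Without the barcodes with other-type markers 2 genes were higher and 2 lower, beside 2.71% and 3.01% of all genes. The part of the mitochondrial share was not tested. Among ribosomal-rich barcodes, where only 2 libraries had both classes, 1 gene was higher and 2 lower, beside 0.845% and 0.662% of all genes. Atf6 was at -0.02 in that fit (edgeR adjusted p = 0.994). Of the 7, only Edem2 (0.80 ± 0.15) and Creld2 (-0.55 ± 0.14) were called there. In ribosomal-poor barcodes only Edem2 (0.64) was called, beside 2.03% of all genes higher. The ribosomal-rich values of Ddit3 (-0.83, edgeR adjusted p = 0.101), Herpud1 (-0.52, 0.0771) and Edem1 (0.45, 0.101) were about as large as over all barcodes. Leaving out a bone marrow library turned the count of 7 into 4 (female) or 3 (male).

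Set against IgG, IgA cells were lower in 13 genes and higher in Txndc5 alone, beside 5.79% and 4.71% of all genes. The largest differences were in Manf (-0.88 ± 0.11, edgeR adjusted p = 1.93e-06), Ssr2 (-0.79 ± 0.11), Mzb1 (-0.78 ± 0.12) and Creld2 (-0.75 ± 0.12), followed by Sec61b (-0.65 ± 0.12), Dnajb9 (-0.57 ± 0.12) and Ssr4 (-0.54 ± 0.12), each in 5 of 5 libraries. Manf was at 802, 757, 1488, 1015 and 662 in IgA and 1795, 1457, 2772, 1723 and 1040 in IgG. IgA was the lower class in every library, although the ranges overlap. RNA outside cells held Manf at 908, 1102, 2041, 1481 and 1518 CPM in these libraries, above all 5 IgA values and above the IgG value of male thymus. The count of 14 was 9 without female spleen. Barcodes with at least 2 UMIs of other-type markers were fewer in IgA than in IgG in all 5 libraries (11.1% to 25% against 21.2% to 42.9%), and without them 6 genes were lower and Txndc5 higher, beside 3.27% and 3.1% of all genes. The median mitochondrial share was higher in IgA in all 5 (4.96% to 7.24% against 3.50% to 5.58%), and its part was not tested. Among ribosomal-rich barcodes, with both classes in 2 libraries, 9 genes were lower and Txndc5 higher, beside 1.52% and 1.74% of all genes. Manf (-0.81), Creld2 (-0.81), Ssr2 (-0.70) and Mzb1 (-0.50) were called there, while Ssr4 (-0.03, edgeR adjusted p = 0.974), Sec61b (-0.27, 0.334) and Dnajb9 (-0.45, 0.193) were not.

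The immunoglobulin share of a cell's UMIs divided the genes in a more mixed way. Barcodes of each library were cut into tertiles (3 parts of equal size) by this share, and the high tertile was compared with the low tertile. Over all kept barcodes 10 genes were higher and 12 lower, beside 22% and 23.9% of 10298 genes, so that these counts stand against a high background. Of the 10, only Ssr4, Herpud1 and Edem2 were higher in levels in all 6 libraries, whereas the 12 were lower in 6 of 6. High tertiles also held more ribosomal-rich barcodes, 30.5% to 69.0% against 0% to 45.9% in low tertiles, and fewer cycling ones in all 6 libraries. The leading light-chain V gene held a larger share in the high tertile in all 6, with medians of 78.0% to 97.3% against 61.1% to 73.0%. The median mitochondrial share was lower in the high tertile in 4 libraries (2.51% against 6.86% in female bone marrow) and higher in male spleen and male thymus. IgM cells made up less of the high tertile in all 6 libraries (76.5% against 84.0% in female bone marrow, 38.9% against 86.1% in female thymus). Median UMIs outside immunoglobulin genes were higher in the high tertile (6817 against 2343 in female bone marrow), except in male spleen (3362 against 3455). Their part in the differences was not tested. The comparison was therefore repeated on each side of the ribosomal split.

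Among ribosomal-rich barcodes of 5 libraries, the genes together made up a smaller part of UMIs outside immunoglobulin in the high than in the low tertile. From low to middle to high, the values were 5.09%, 3.99% and 3.64% for female bone marrow, 4.79%, 3.99% and 4.04% for male bone marrow, and 7.05%, 5.69% and 4.85% for female spleen. They were 6.45%, 4.46% and 4.84% for male spleen and 5.13%, 4.02% and 4.33% for male thymus. The 3 male libraries were lowest in the middle tertile, and the median barcode of male bone marrow was at 3.83% in the high and 3.76% in the low tertile. In this fit 22 genes were lower and 8 higher in the high tertile, beside 18.5% and 14.6% of 8634 genes. Cycling markers were lower in the high tertiles (0.00530% against 0.0948% of UMIs in female bone marrow). Without cycling barcodes the male thymus sums fell under 20 barcodes and left the fit, in which 19 genes were lower and 2, Ssr4 and Edem2, were higher. With cycling barcodes kept and male thymus left out, 22 were lower and 8 higher, beside 18.2% and 14.6% of all genes. The shares of all genes in the fit without cycling barcodes are not given here.

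The translocation genes split in this comparison. Ssr2 was at 340, 329, 455, 355 and 382 in the high tertiles of the bone marrow pair, the spleen pair and male thymus, and at 879, 686, 1265, 909 and 875 in the low tertiles. The tertiles did not overlap, and the log2 difference was -1.25 ± 0.08 (edgeR adjusted p = 2.02e-15). Ssr4, a subunit of the same complex on the X chromosome, went the other way: it was at 3261, 3743, 4921, 4387 and 4126 in the high tertiles and 2740, 2632, 3234, 3129 and 2407 in the low tertiles. High exceeded low in each library, by 0.58 ± 0.06 (edgeR adjusted p = 3.64e-09). Ssr1 (-0.90 ± 0.09), Ssr3 (-0.59 ± 0.08) and Sec61b (-0.55 ± 0.06) were lower, and Sec11c (-0.06) was not called.

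Of the 9 chaperones and their partners, 7 were lower in the high tertile of ribosomal-rich barcodes and none higher (Dnajb9 and Dnajc3 were not called), and of the 9 folding genes 8 were lower and 1, Txndc5, was higher. Hsp90b1 was at 3989, 4525, 6519, 6965 and 5976 in the high tertiles and 8527, 7842, 13780, 12340 and 9800 in the low tertiles, lower in all 5 libraries by -0.84 ± 0.07 (edgeR adjusted p = 2.94e-12) with no overlap of the tertiles. Pdia3, which works with calnexin on glycoproteins, was at 575, 617, 870, 805 and 708 against 1255, 1028, 1654, 1539 and 1341, lower by -0.86 ± 0.07 and also without overlap. Manf (-0.84 ± 0.07), Calr (-0.79 ± 0.07), Fkbp11 (-0.71 ± 0.08), Pdia6 (-0.67 ± 0.07), Mzb1 (-0.63 ± 0.07), Hspa5 (-0.54 ± 0.07) and Dnajb11 (-0.53 ± 0.07) were lower in 5 of 5 libraries.

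The 8 genes that were higher in the high tertile were Ssr4, Txndc5, 4 of the 8 degradation genes and 2 of the 4 sensors and transcription factors. Ddit3 (0.67 ± 0.12), Sel1l, the adaptor of the Hrd1 ligase (0.53 ± 0.07), Herpud1 (0.37 ± 0.07) and Edem2 (0.36 ± 0.06) were higher in 5 of 5 libraries, and Ern1 (0.32 ± 0.10), Txndc5 (0.30 ± 0.06) and Derl3 (0.18 ± 0.07) in 4 of 5. Degradation genes did not all rise: Os9 was called lower, in 5 of 5 libraries. With male thymus left out, Derl2 (-0.35 ± 0.09), Edem1 (-0.31 ± 0.08) and Os9 (-0.24 ± 0.08) were called lower. From the other pathway lists, 15 of 63 genes were higher and 24 lower, with stress signalling at 5 higher (Asns, Atf5, Chac1, Ppp1r15a and Xbp1) and 1 lower (Atf6b). Transport to the Golgi had none higher and 7 of 11 lower.

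Among barcodes under 10% ribosomal protein UMIs, 10 genes were higher and 4 lower in the high tertile, beside 11.9% and 9.66% of 9308 genes. The listed ER genes together made up 4.505% in the high against 4.877% in the low tertile of female bone marrow. The values were 6.305% against 7.348% for female spleen, 6.354% against 6.991% for male spleen and 5.962% against 6.209% for male thymus. They went the other way for male bone marrow (5.455% against 5.306%) and female thymus (5.954% against 5.823%). The median barcode was higher in the high tertile in every library except female spleen (5.772% against 6.029%). Ssr4 was higher in all 6 libraries by 1.46 ± 0.09 (edgeR adjusted p = 9.9e-23), with high tertiles at 978 to 3331 and low tertiles at 514 to 1154. Sec61b was higher by 0.99 ± 0.11, Edem2 by 0.77 ± 0.09, Herpud1 by 0.52 ± 0.09 and Fkbp11 by 0.50 ± 0.10. Ssr2 (-0.41 ± 0.09), Ssr1 (-0.33 ± 0.09), Hsp90b1 (-0.33 ± 0.11) and Ssr3 (-0.24 ± 0.09) were lower, each in 6 of 6 libraries. Sec61b, Fkbp11, Mzb1, Ddit3 and Canx were among the genes with opposite signs on the 2 sides of the split. This difference itself was not tested. Ssr2, Ssr1, Ssr3 and Hsp90b1 were lower, and Ssr4, Edem2, Herpud1, Sel1l and Txndc5 higher, on both sides. Without cycling barcodes on the ribosomal-rich side, and so without male thymus, Herpud1 (0.08, edgeR adjusted p = 0.582), Sel1l (0.16, 0.215) and Txndc5 (0.09, 0.442) were no longer called. With only male thymus left out they were at 0.38, 0.47 and 0.37 and were called. Without cycling barcodes Ddit3 (0.16, edgeR adjusted p = 0.543), Ern1 (0.01, 0.969) and Derl3 (-0.01, 0.957) were not called either. With only male thymus left out these were at 0.67, 0.32 and 0.19 and were called.

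**Figure D4:**
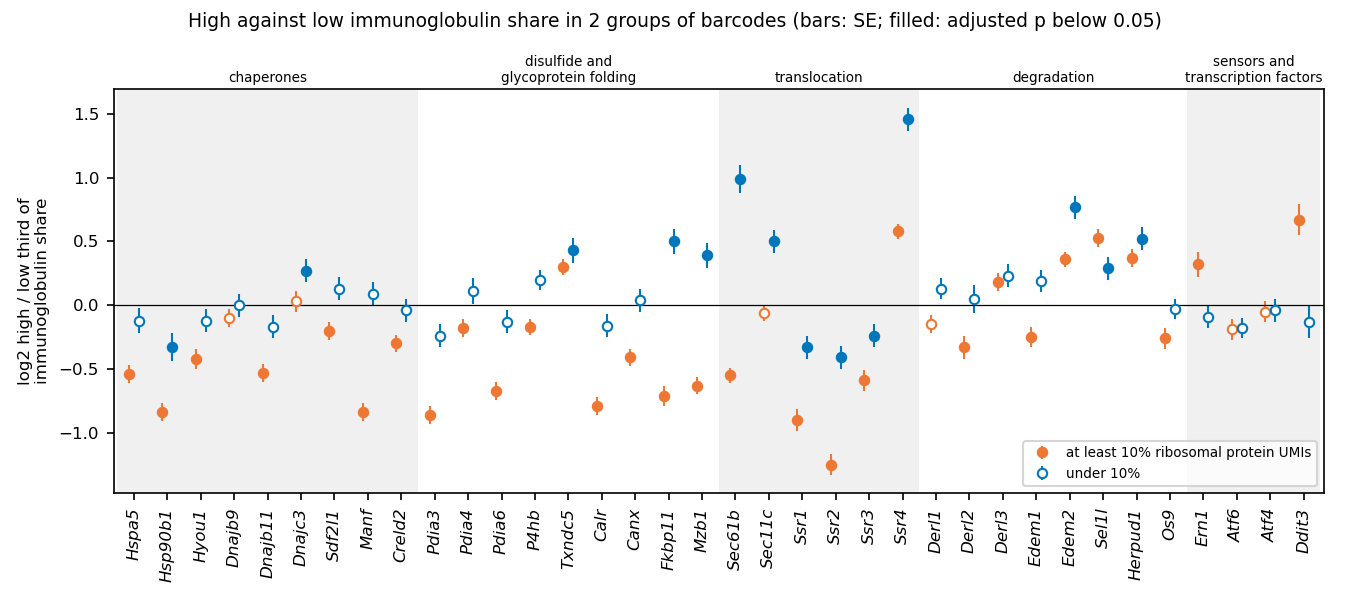
Log2 difference of each gene between the high and the low tertile of immunoglobulin share, for barcodes with at least 10% ribosomal protein UMIs (orange) and under 10% (blue); bars are SE and filled points have an adjusted p under 0.05. Ssr4 lies above 0 on both sides (0.58 and 1.46) and Ssr2 below (-1.25 and -0.41), while Sec61b changes sign (-0.55 and 0.99).

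Whether the difference between tertiles depends on tissue was asked with an interaction term. It was called for 3 genes, Sec61b, Ern1 and Fkbp11 (edgeR adjusted p = 0.0073, 0.0132 and 0.0327), beside 6.77% of 10504 genes. Within ribosomal-rich barcodes 0 genes were called (0.411% of all genes; 9 genes under an unadjusted p of 0.05) and within ribosomal-poor barcodes 0 (0.075% of all genes; 2 genes under 0.05). The count of 3 was 0 without either bone marrow library, 1 without female spleen or female thymus, 6 without male spleen and 5 without male thymus.

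The ribosomal split itself was compared within 5 libraries, a comparison added after the values were seen. Summed, the 36 genes took more of the UMIs outside immunoglobulin in ribosomal-poor than in ribosomal-rich barcodes. The values were 4.54% against 4.32% and 5.25% against 4.31% for bone marrow, and 6.69% against 6.09% and 6.505% against 5.39% for spleen. Male thymus was at 5.75% against 4.57%. Barcodes under 10% ribosomal protein UMIs had 7 genes higher and 20 lower than ribosomal-rich barcodes, beside 44.5% and 31.2% of 10806 genes. The higher ones were the sensors Atf6 (2.02 ± 0.11, edgeR adjusted p = 1.34e-11) and Ern1 (1.62 ± 0.10) with Hyou1 (1.40 ± 0.10), Sel1l (1.08 ± 0.10), Os9 (0.97 ± 0.10), Canx (0.79 ± 0.10) and Hspa5 (0.41 ± 0.13), each in 5 of 5 libraries. Atf6 was at 685, 648, 570, 656 and 683 in ribosomal-poor barcodes and 91.4, 92.0, 110, 118 and 118 in ribosomal-rich ones, with no overlap.

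Of the 20 lower genes, 8 were also lower in levels in all 5 libraries: Sec61b (-3.02 ± 0.15), Ssr4 (-2.33 ± 0.16), Mzb1 (-1.95 ± 0.15), Sec11c (-1.87 ± 0.13), Fkbp11 (-1.83 ± 0.11), Manf (-1.56 ± 0.12), Ssr2 (-1.20 ± 0.10) and Sdf2l1 (-0.99 ± 0.11). Sec61b was at 426.5, 342, 906, 468 and 310.5 in ribosomal-poor barcodes and 2374, 2061, 3144, 2572 and 2132 in ribosomal-rich ones, again with no overlap. Dnajc3, Creld2, Pdia6 and Dnajb11, also among the 20, were at higher CPM in the ribosomal-poor barcodes of the bone marrow and spleen libraries. Dnajc3 was there at 1038, 1227, 1502 and 1426 against 876, 927, 1176 and 1166 in ribosomal-rich ones. The median of all genes was 0.23 in this comparison with TMM scaling and 0.08 with DESeq2 size factors, so small differences depend on the scaling. Other measures moved with the split in each of these libraries. Ribosomal-poor barcodes had medians of 2246 to 3139 UMIs outside immunoglobulin genes against 7993 to 9997, of 4.41% to 7.10% mitochondrial UMIs against 1.95% to 2.08%, and of 62.8% to 73.1% against 86.4% to 97.6% for the leading light-chain V gene. The nuclear RNA Malat1 was at 7.06% to 10.2% of UMIs in the ribosomal-poor barcodes of these libraries and at 0.917% to 1.38% in the ribosomal-rich ones. Their part in the differences was not tested.

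Across the 36 genes the log2 difference followed transcript length, with a Spearman rho of 0.76, and across 10104 genes it was 0.73. These points share the same libraries and barcodes, and length here is the longest annotated coding transcript. All 10 genes under 1500 nucleotides were lower in ribosomal-poor barcodes, beside 86.2% of all genes of that length, and of the 11 genes of at least 3000 nucleotides 6 were higher and 3 lower, beside 72.3% and 8.94%. For immunoglobulin share the same rho was -0.59 over all barcodes, -0.35 among ribosomal-poor and -0.00 among ribosomal-rich barcodes.

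**Figure D5:**
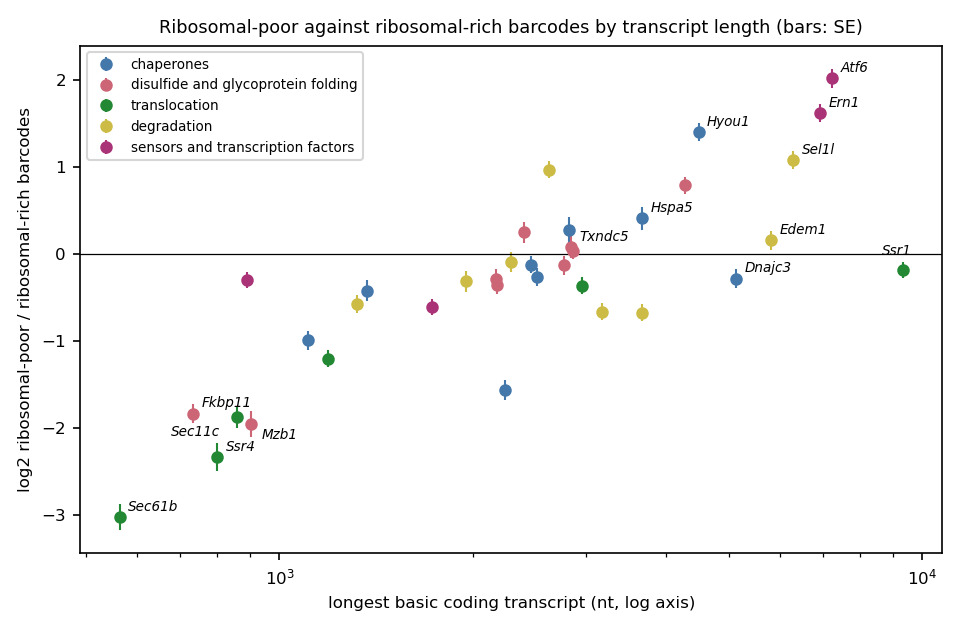
Log2 difference of each of the 36 genes between ribosomal-poor and ribosomal-rich barcodes against the length of its longest coding transcript (log axis, nucleotides); bars are SE and colours are roles. Short genes such as Sec61b (-3.02) and Ssr4 (-2.33) lie low at the left, and long ones such as Ern1 (1.62) and Atf6 (2.02) high at the right.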

How the data were processed

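The deposited values are whole-number UMI counts per gene and barcode from 10x Genomics 5′ gene expression libraries, made by the authors with Cell Ranger 6.0.2 on mm10 (GRCm38), per the submitters' processing notes. The filtered matrices of 6 libraries were used, and the unfiltered ones only for RNA outside cells. The 6 VDJ libraries were not used here. Depth is the range of UMI totals given with the samples.

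Counts were summed per library, or per library and class, tertile or ribosomal group, over the kept barcodes, and sums of fewer than 20 barcodes were left out of split comparisons. Immunoglobulin genes (395 symbols starting Igh, Igk or Igl, which take in Iglon5, Igll1 and Ighmbp2) were left out of tests and library sizes. The symbol Ddit3 has 2 rows, and the second held 0 UMIs. Sums were tested with edgeR 4.0.16 in R 4.3.3 (quasi-likelihood, TMM, filterByExpr), with Benjamini-Hochberg adjustment over all genes tested and calls at 0.05. Tissue and sex entered additively with 2 residual degrees of freedom, and other splits had library as a block. The tests were checked on simulated data. Alternatives were DESeq2 1.42.0, its size factors, no low-count filter, cells thinned to 1000 UMIs, a leading V gene of at least 80%, fixed limits of immunoglobulin share, subsets of barcodes, and each library left out. Doublets were not called. Free RNA was not subtracted.

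The members and lists were chosen with earlier results of these data known. Per comparison, called genes were named, up to 8 in full by size among those with 1 direction in every library, or the 3 with the lowest p where fewer than 3 passed. Hspa5 and Hsp90b1 levels by tissue, and genes named beyond 8, were added after their values were seen. Sequences are RefSeq's (GRCm38.p6), and gene positions are from GENCODE.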

Additional observations from a re-analysis of the deposited data

Results flagged for a closer look

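The difference between the high and the low tertile of immunoglobulin share itself differed between tissues for 3 genes in edgeR's interaction test, beside 6.77% of all genes tested, so 3 of 36 is close to the background. For Sec61b, the log2 difference between tertiles was 1.0 larger in thymus than in bone marrow and stood at -0.73 in spleen relative to bone marrow. For Ern1 the same 2 values were -0.03 (thymus) and 0.82 (spleen), and for Fkbp11 they were 0.47 (thymus) and -0.65 (spleen). None of the 3 was called within ribosomal-rich or within ribosomal-poor barcodes. The count of 3 was 0 with fixed limits of immunoglobulin share, with a leading V gene of at least 80%, and without either bone marrow library.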

How the results depend on the processing

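Tissues were compared with sex as a term, and classes, tertiles and ribosomal groups with library as a block. For pairing by replicate number, no paired analysis was possible because every group has 1 library, numbered 1. Counts below are of the 36 genes called. The share of all genes called also changed between settings, so these counts alone do not show a change particular to the 36. Spleen against bone marrow went from 0 to 1 in ribosomal-rich barcodes, 2 there without cycling cells, and 6 in ribosomal-poor barcodes, with 0 to 1 when a library was left out; inside the ribosomal-rich group the count of 1 ranged from 0 to 21, and the 6 of the ribosomal-poor group from 1 to 10 (2 with DESeq2). Thymus against bone marrow stayed at 0 with each library left out, and ranged from 0 to 12 in the ribosomal-rich and 0 to 1 in the ribosomal-poor group. Thymus against spleen went from 0 to 4 without cells carrying other-type markers, 4 in ribosomal-rich and 5 in ribosomal-poor barcodes, with 0 to 5 over left-out libraries; within the groups the ranges were 0 to 18 (0 with DESeq2) and 0 to 10. Male against female went from 0 to 2, 1 without cycling cells, and 1 in ribosomal-poor barcodes; within the groups the ranges were 0 to 13 (0 with DESeq2) and 0 to 3 (2 with size factors).

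IgA against IgM (7) gave 0 in the middle tertile, 11 without the low-count filter, 4 without other-type markers, 3 in ribosomal-rich and 1 in ribosomal-poor barcodes, and 3 to 7 over left-out libraries. IgG against IgM (18) gave 8 in the middle tertile and 11 to 19 over left-out libraries. IgA against IgG (14) gave 7 in the middle tertile, 7 without other-type markers, 8 with a leading V gene of at least 80%, and 9 to 17. The middle-tertile fit of the classes had 8 sums, against 15 over all barcodes. High against low share (22) gave 14 in ribosomal-poor barcodes, 13 after thinning and 14 at 80%. The interaction (3) gave 5 with DESeq2, 0 with fixed limits, 1 in Ighm cells, 11 without cycling cells, 0 in either ribosomal group, 0 at 80%, and 0 to 6.

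Directions reversed for Atf6 in IgA against IgM among ribosomal-rich barcodes (-0.02). For high against low share they reversed without cycling cells for Pdia6 (0.03) and Ssr2 (0.09); at 80% for Ern1 (0.06) and Fkbp11 (-0.27); after thinning for Canx (0.02) and Ddit3 (-0.15); in ribosomal-poor barcodes for Canx (0.04), Atf4 (-0.04) and Ddit3 (-0.13); in ribosomal-rich barcodes for Sec61b (-0.55), Sec11c (-0.06), Ern1 (0.32), Atf4 (-0.05) and Fkbp11 (-0.71); and there without cycling cells for Derl3 (-0.01), Sec61b (-0.37), Sec11c (-0.07), Ern1 (0.01), Atf4 (-0.03) and Fkbp11 (-0.70). The cause was not tested. Of 245 alternative counts 166 stayed within 1.5 times the value reported, and of 1398 alternatives for the 88 called values of single genes 1129 kept direction and call. The thymus libraries, with the fewest barcodes, limit every thymus comparison.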
